A study of Mus musculus with 6 samples.

Results

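Interneurons are local inhibitory neurons, and many of them store a neuropeptide beside GABA. The genes described here are 10 of the 54658 listed in the count tables, taken by name: 6 peptide precursors (Cck, Vip, Sst, Npy, Cort and Crh), 1 secreted binding protein (Crhbp) and 3 receptors (Cckbr, Vipr1 and Crhr1). All 10 were found, none shares a base of its span with another listed gene, and all passed the expression filter, so each was tested. They were measured in nucleus accumbens tissue, a ventral striatal region, from male C57BL6 mice 8 weeks old. The Gas5 group received a herpes simplex virus vector (p1005+) carrying the long noncoding RNA Gas5 with EGFP, and the GFP group received that vector with EGFP alone, so every animal carried the virus and EGFP. Each group holds 3 libraries lettered A, B and C. The labels name no cell type for the vector's expression and leave it unsaid if a library stands for a single mouse or for several pooled, so the p-values speak of the spread among these samples, which may be partly technical. The series as a whole concerns Gas5 in cocaine action, and no library here is labelled with a cocaine treatment.

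Neuropeptides are cut from larger precursors inside dense-core vesicles and act on G protein-coupled receptors. In the striatum somatostatin (Sst) and neuropeptide Y (Npy) are classically made by the same class of interneurons, which also make nitric oxide synthase. Cholecystokinin (Cck) is made by basket-type interneurons and also by glutamatergic pyramidal neurons of the cortex, claustrum and amygdala, and its main brain receptor is Cckbr. Vasoactive intestinal peptide (Vip) marks a class of interneurons that inhibits other interneurons in the cortex, and Vipr1 is one of its receptors. Cortistatin (Cort) resembles somatostatin and binds the somatostatin receptors. Corticotropin-releasing hormone (Crh) starts the hormonal stress response and acts within the brain through Crhr1, while Crhbp binds the free peptide.

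Promoter sequences are shown for the 3 genes of largest decrease (Cck, Vip and Crhbp) and for Sst, a textbook target of the factor CREB, because the 4 share the core TGACG of the cyclic AMP response element (CRE). They come from the RefSeq table of GRCm38.p6, which held 9 of the 10 genes, and run 5′ to 3′ on the gene's strand from 250 bases before the start through the first 50 bases transcribed. Capitals mark TGACG on either strand (CGTCA when read on the other strand), the full element TGACGTCA, and the TATA box TATAAA. The Cck promoter is at chr9:121495645-121495944 on the minus strand, Vip at chr10:5638968-5639267 on the plus strand, Crhbp at chr13:95444782-95445081 on the minus strand and Sst at chr16:23890795-23891094 on the minus strand.
Cck: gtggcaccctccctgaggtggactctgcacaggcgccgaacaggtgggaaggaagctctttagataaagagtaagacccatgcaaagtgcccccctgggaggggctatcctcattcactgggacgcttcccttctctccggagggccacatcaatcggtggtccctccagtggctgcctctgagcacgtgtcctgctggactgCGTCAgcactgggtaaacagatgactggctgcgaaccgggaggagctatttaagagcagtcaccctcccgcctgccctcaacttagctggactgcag
Vip: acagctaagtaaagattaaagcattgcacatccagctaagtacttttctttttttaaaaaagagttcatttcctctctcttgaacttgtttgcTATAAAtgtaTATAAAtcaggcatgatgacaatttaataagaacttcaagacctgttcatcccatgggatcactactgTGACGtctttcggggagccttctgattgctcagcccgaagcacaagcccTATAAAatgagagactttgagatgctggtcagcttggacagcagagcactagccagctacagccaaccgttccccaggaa
Crhbp: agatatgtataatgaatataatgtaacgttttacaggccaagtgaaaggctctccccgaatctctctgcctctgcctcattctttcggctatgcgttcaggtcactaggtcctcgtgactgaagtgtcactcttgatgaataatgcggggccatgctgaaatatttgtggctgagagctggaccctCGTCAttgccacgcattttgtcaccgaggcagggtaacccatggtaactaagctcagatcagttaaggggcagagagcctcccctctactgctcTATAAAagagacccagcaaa
Sst: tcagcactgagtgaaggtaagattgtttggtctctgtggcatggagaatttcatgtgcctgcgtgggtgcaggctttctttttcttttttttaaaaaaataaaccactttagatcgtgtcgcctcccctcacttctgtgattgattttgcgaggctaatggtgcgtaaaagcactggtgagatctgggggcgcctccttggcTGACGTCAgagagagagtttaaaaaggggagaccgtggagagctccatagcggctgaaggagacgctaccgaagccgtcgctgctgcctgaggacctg

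Positions are counted from the RefSeq start base as 0. In Crhbp and Sst that base lies inside the gene span given below, and so do their sites at -64 and -48. Sst was the only gene of the 9 with the full element, at -48, and 1.79% of 32851 promoters of the same length hold it on either strand. Its palindrome contains TGACG on both strands. TGACG was present in 6 of the 9, against 20.8% of all promoters: at -47 in Cck, -79 in Vip and -64 in Crhbp, and also in Sst, Cort and Vipr1. TATAAA was found in Vip, at -157, -147 and -30, and in Crhbp, at 30 after the start, against 13.6% of all promoters. No match to the AP-1 motif TGANTCA was found in the 9, and 7.81% of all promoters hold one. The E-box CANNTG was in 5 and the GC box GGGCGG in 3, against 72.3% and 35.7% of all promoters. These are matches of letters, and the counts that follow carry no measurement at the promoters. Genes with TGACG stand both among those that fell (Cck, Vip, Crhbp) and among those that did not pass the test (Sst, Cort, Vipr1).

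The tables hold raw counts, with 32359052 to 56081575 counts in a library. Intronic reads were counted with exonic ones, and a gene's level is given as CPM, the counts divided by the library total and set to a common scale, with TMM scaling factors. Of 17563 tested genes, 260 were higher and 695 lower in Gas5 by the edgeR quasi-likelihood test (Benjamini-Hochberg adjusted p under 0.05). Leaving out GFP B gave 4 higher and 111 lower, leaving out GFP C gave 6 higher and 101 lower, and leaving out Gas5 A gave 112 higher and 500 lower. Gas5 itself was at 22.6, 23.3 and 23.6 CPM in the Gas5 libraries, against 18.6, 16.5 and 18.3 CPM in the GFP libraries, with no overlap (log2 fold change 0.38, adjusted p = 0.0163). Its adjusted p was 0.0727 when GFP B was left out and 0.0677 when GFP C was. Other listed genes overlap 26.6% of the Gas5 span, so the Gas5 count covers the remainder only. The tissue's defining genes were present: all 11 markers of medium spiny neurons, the principal neurons of the region, were tested, none was called, and their summed level was 3789 to 5012 CPM in Gas5, against 4576 to 5220 CPM in GFP.

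Markers of cortical excitatory neurons differed between the groups as well. Of 11 such markers 10 were tested and 8 were lower, with a summed level of 339.5 to 427 CPM in Gas5, against 640 to 858 CPM in GFP, while Neurod1 was at 0 in every library and its whole span is shared with other genes. Slc17a7, which loads glutamate into the vesicles of cortical neurons, was at 5.75, 25.2 and 42.5 CPM in Gas5 A, B and C, against 153, 217 and 247 CPM in GFP A, B and C. Of 6 tested markers of the claustrum and layer 6b, neighbouring cell groups, 5 were lower. Among the other marker lists, 1 of 5 tested astrocyte genes was higher, and 1 of 4 endothelial and 1 of 5 septal genes were lower. Beside these counts, 3.96% of all tested genes were called lower and 1.48% higher. None of 5 microglial or 6 oligodendrocyte genes was called. All 6 oligodendrocyte genes had negative fold changes, beside 45.8% of all tested genes. Of the 6, 4 had an unadjusted edgeR p under 0.05, beside 3766 of all 17563 tested genes. The summed level of the oligodendrocyte genes was 1543 to 1965 CPM in Gas5, against 2004 to 2177 CPM in GFP. All 5 microglial genes had positive fold changes, 2 with such a p. Of the 5 astrocyte genes 4 were positive, and 4 had such a p. The 6 listed astrocyte genes summed to 2472 to 2987 CPM in Gas5, against 2842 to 3040 CPM in GFP, so these ranges overlapped. The 6 listed microglial genes summed to 240 to 257 CPM in Gas5, against 214 to 235 CPM in GFP. Several of the peptide genes are also made by excitatory neurons of the cortex or claustrum. These values belong beside each result that follows, and their part in those results was not tested. In bulk tissue, fewer cells of a type and less RNA per cell cannot be told apart.

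Of the 10 genes, 4 fell in Gas5 and 0 rose. Those that fell were Cck, Vip, Crhbp and Cckbr, and across all tested genes 3.96% were called lower and 1.48% higher. DESeq2 called 5 lower and 0 higher, beside 1000 lower and 483 higher among the 17516 genes it tested. By unadjusted edgeR p, 5 of the 10 were under 0.05, all lower. Over all 17563 tested genes 3766 were, in either direction. All 10 fold changes were negative, from -2.42 to -0.12 on the log2 scale with a median of -0.30, beside a median of 0.02 over all tested genes, 45.8% of which were negative. In 5 of the 10 every Gas5 library was below every GFP library (the 4 that fell, and Crhr1), and 13.9% of all tested genes had groups apart in that direction. None of the 10 had groups apart in the other direction, which 13.8% of all tested genes showed. Leaving out Gas5 C left 2 of them called (Cck and Vip), and leaving out GFP B or GFP C left 1 (Cck in both). Leaving out Gas5 A left 3, and leaving out Gas5 B gave 5, with Sst added. Cck, Vip, Crhbp and Cckbr were each called in all 9 alternatives of scaling, filter, dispersion, block or tool.

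**Figure D1:**
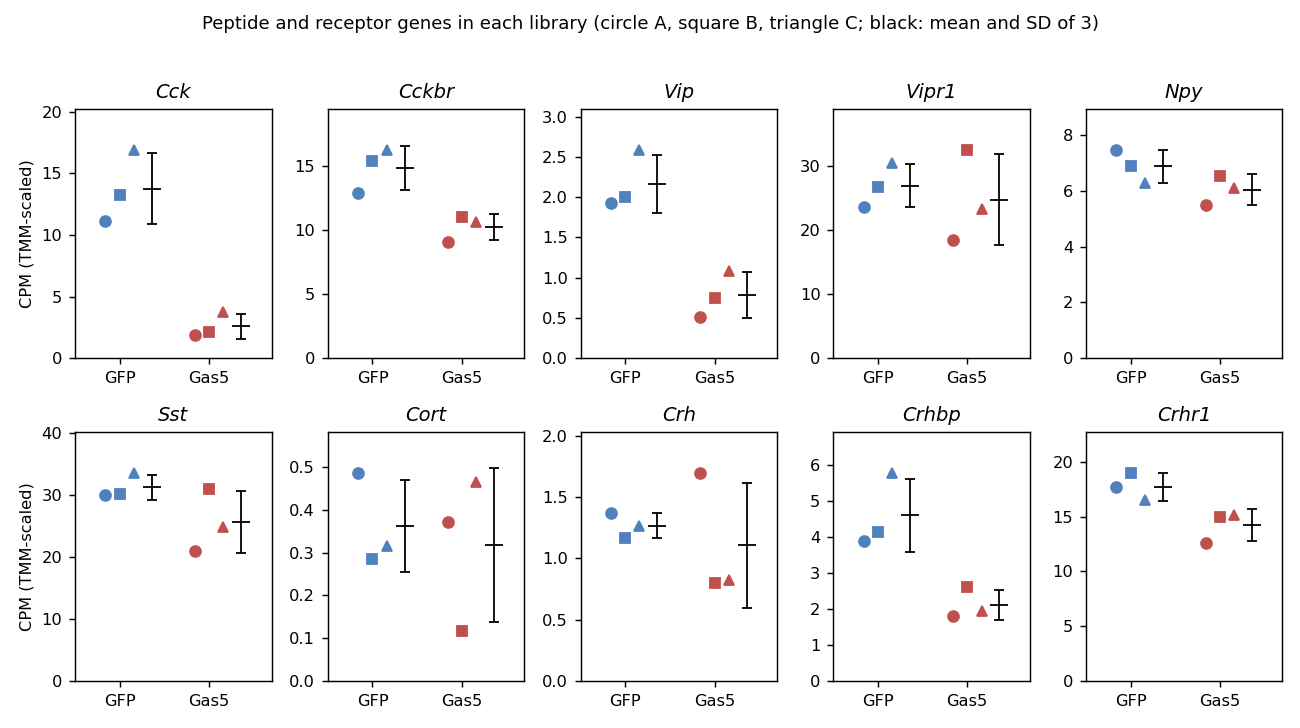
Level of each of the 10 genes in the 6 libraries, in TMM-scaled CPM on axes that start at 0. Circles, squares and triangles are libraries A, B and C (blue GFP, red Gas5), and black lines are the mean and SD of 3. Cck, Vip, Crhbp, Cckbr and Crhr1 have no overlap between the groups, and Vipr1, Sst, Npy, Cort and Crh overlap.

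Cck had the largest decrease of the 10. Its level was 1.90, 2.10 and 3.72 CPM in Gas5 A, B and C, against 11.2, 13.2 and 16.9 CPM in GFP A, B and C. The highest Gas5 library was far below the lowest GFP library. The means were 2.57 ± 0.994 CPM in Gas5, against 13.8 ± 2.89 CPM in GFP (SD, n = 3 each), a 5.35-fold difference with a log2 fold change of -2.42 (SE 0.246, 95% interval -2.98 to -1.86, adjusted p = 0.00473 by edgeR). It ranked 19 of 17563 genes by p-value. With each library left out in turn Cck was called in 6 of 6 fits, at -2.78 to -2.25, with adjusted p between 0.00325 and 0.0290. The raw counts were 82, 90 and 144 in Gas5, against 621, 510 and 536 in GFP, over a gene of 5871 bases at chr9:121489824-121495694 whose exons cover 1305.

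Cckbr, the receptor through which cholecystokinin mostly acts in the brain, fell by a smaller amount. It was at 9.07, 11.1 and 10.6 CPM in Gas5 A, B and C, against 12.9, 15.4 and 16.2 CPM in GFP A, B and C. The groups did not overlap, but the gap between Gas5 B and GFP A was small. The means were 10.2 ± 1.04 and 14.9 ± 1.74 CPM, with a log2 fold change of -0.53 (SE 0.109, 95% interval -0.78 to -0.28, adjusted p = 0.0311 by edgeR). The adjusted p rose above the threshold on leaving out a library, GFP C (0.134), GFP B (0.130), Gas5 A (0.0605) or Gas5 C (0.0592). The intervals of Cck and Cckbr do not overlap, and the difference between their changes was not tested. The count ratio of Cck to Cckbr was 0.210, 0.190 and 0.350 in the Gas5 libraries, against 0.866, 0.857 and 1.04 in the GFP libraries. Cckbr lies at chr7:105425731-105470898 on the plus strand.

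Vip, the precursor of vasoactive intestinal peptide, was low in every library. Its level was 0.510, 0.748 and 1.08 CPM in Gas5 A, B and C, against 1.93, 1.997 and 2.58 CPM in GFP A, B and C. No Gas5 library reached the level of a GFP library. The means were 0.781 ± 0.288 and 2.17 ± 0.360 CPM, a 2.77-fold difference with a log2 fold change of -1.47 (SE 0.269, 95% interval -2.08 to -0.86, adjusted p = 0.0218 by edgeR). The decrease rests on 22, 32 and 42 counts against 107, 77 and 82, and the 95% exact Poisson interval of Gas5 A, which covers counting error only, ran from 13.8 to 33.3 counts. The call was lost without GFP B (adjusted p = 0.0822) or GFP C (0.103). The gene lies at chr10:5639218-5647617 on the plus strand, 8400 bases of which 3402 are exonic.

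Vipr1, a receptor shared by vasoactive intestinal peptide and the related peptide PACAP, was among the genes that did not pass the test. It was at 18.5, 32.4 and 23.2 CPM in Gas5 A, B and C, against 23.6, 26.7 and 30.3 CPM in GFP A, B and C. The highest and the lowest values of all 6 libraries were both in the Gas5 group. The log2 fold change was -0.12 (95% interval -0.54 to 0.30, adjusted p = 0.760), and its sign turned without Gas5 A, to 0.05. The intervals of Vip and Vipr1 do not overlap. Vipr1 lies at chr9:121642716-121672954 on the plus strand, on the same chromosome as Cck.

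Crhbp, whose product holds corticotropin-releasing hormone away from its receptors, fell 2.15-fold. It was at 1.81, 2.595 and 1.94 CPM in Gas5 A, B and C, against 3.89, 4.12 and 5.76 CPM in GFP A, B and C. The groups were well apart, with GFP C above the other GFP libraries. The means were 2.11 ± 0.422 and 4.59 ± 1.02 CPM, with a log2 fold change of -1.10 (SE 0.201, 95% interval -1.56 to -0.65, adjusted p = 0.0213 by edgeR). The call was lost on leaving out GFP C (adjusted p = 0.0797), GFP B (0.0748) or Gas5 C (0.0554). The gene covers 13554 bases at chr13:95431371-95444924 on the minus strand, of which 1800 are exonic.

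Crhr1, the main brain receptor of the hormone, had groups apart but missed the threshold. Its level was 12.6, 14.96 and 15.2 CPM in Gas5 A, B and C, against 17.7, 18.98 and 16.5 CPM in GFP A, B and C. The lowest GFP library, GFP C, was only just above the highest Gas5 library. The means were 14.2 ± 1.45 and 17.7 ± 1.24 CPM and the log2 fold change was -0.32 (SE 0.0892, 95% interval -0.52 to -0.11, adjusted p = 0.0806 by edgeR). It was past the threshold with DESeq2 (adjusted p = 0.0456) and with no expression filter (0.0403). Crhr1 lies at chr11:104132855-104175523 on the plus strand.

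Crh itself, the peptide, was at 1.69, 0.795 and 0.826 CPM in Gas5 A, B and C, against 1.37, 1.17 and 1.26 CPM in GFP A, B and C. Gas5 A was the highest of the 6 libraries and the other Gas5 libraries were the lowest. The log2 fold change was -0.19 (95% interval -0.88 to 0.49, adjusted p = 0.758), which spans both a decrease and an increase. It was -0.65 on leaving out Gas5 A (adjusted p = 0.168) and -0.0011 on leaving out Gas5 B (0.999). A test between binding protein and peptide was not made. The gene is short, at chr3:19693401-19695396 on the minus strand. The count ratio of Crhbp to Crhr1 was 0.144, 0.173 and 0.127 in Gas5, against 0.220, 0.217 and 0.349 in GFP, so the binding protein was lower relative to the receptor in each Gas5 library.

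The peptides of the somatostatin and neuropeptide Y interneurons did not pass the test. Sst was at 21.0, 31.0 and 24.9 CPM in Gas5 A, B and C, against 30.01, 30.1 and 33.5 CPM in GFP A, B and C. Gas5 B lay within the GFP range, and the other Gas5 libraries lay below it. The means were 25.6 ± 5.02 and 31.2 ± 1.97 CPM and the log2 fold change was -0.28 (SE 0.125, 95% interval -0.57 to 0.00, adjusted p = 0.236). Without Gas5 B it was -0.44 with an adjusted p of 0.0364, so Sst was past the threshold in that fit. Sst lies at chr16:23889573-23890958 on the minus strand, the shortest of the 10 genes at 1386 bases.

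Npy was at 5.47, 6.55 and 6.12 CPM in Gas5 A, B and C, against 7.45, 6.87 and 6.30 CPM in GFP A, B and C. The ranges overlapped through Gas5 B and GFP C. The log2 fold change was -0.19 (SE 0.106, 95% interval -0.43 to 0.05, adjusted p = 0.345), and this interval ends above the values of Cck, Vip and Crhbp. The count ratio of Sst to Npy was 3.83, 4.73 and 4.06 in Gas5, against 4.03, 4.38 and 5.315 in GFP, and these ranges overlap. Npy lies at chr6:49822710-49829507 on the plus strand. Cort, at chr4:149125034-149126763 on the minus strand, rested on 16, 5 and 18 counts in Gas5, against 27, 11 and 10 in GFP, or 0.117 to 0.486 CPM. Its log2 fold change was -0.24 (95% interval -1.31 to 0.82, adjusted p = 0.806 by edgeR). That interval covers a decrease and an increase alike, so the direction was not settled.

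**Figure D2:**
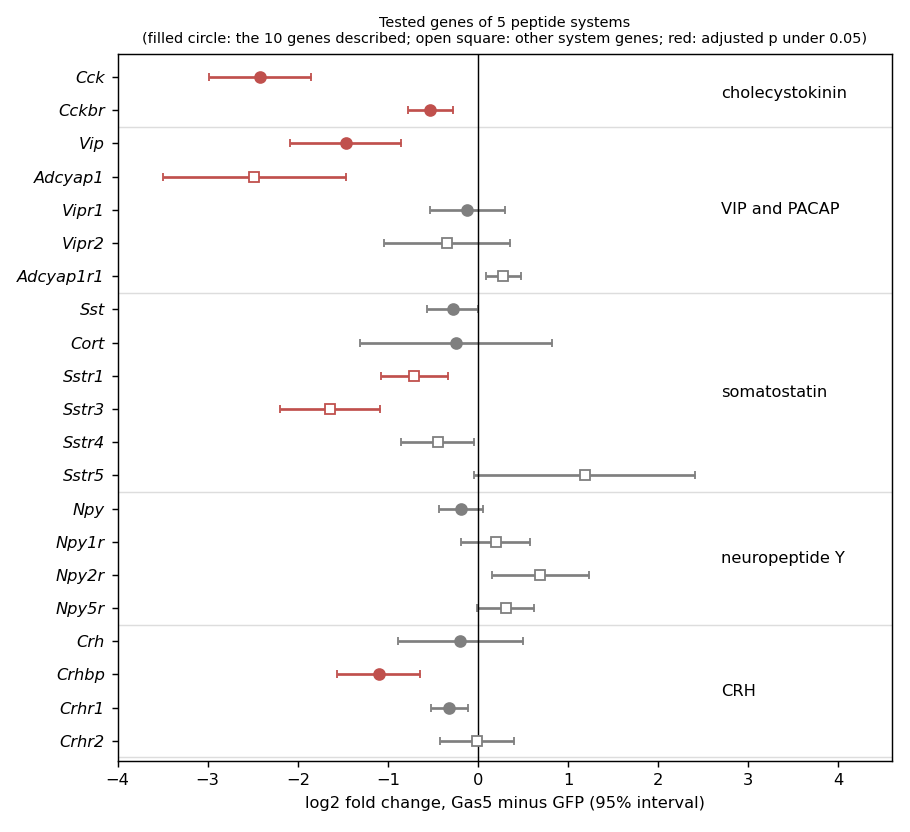
log2 fold change, Gas5 minus GFP, with its 95% interval for the 21 tested genes of the 5 peptide systems. Filled circles are the 10 genes described, open squares are other ligands and receptors, and red marks an adjusted p under 0.05. Cck (-2.42) and Adcyap1 (-2.48) lie farthest to the left, and no gene on the right is red.

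The 5 peptide systems were completed with their other ligands and receptors, 20 genes of which 11 were tested. Of these 3 fell and 0 rose, beside 3.96% called lower and 1.48% higher over all tested genes. The median log2 fold change of the 11 was -0.01. Adcyap1, which encodes PACAP, the close relative of vasoactive intestinal peptide, was at 0.232, 0.327 and 1.19 CPM in Gas5, against 3.15, 2.90 and 3.56 CPM in GFP. All Gas5 libraries were below all GFP libraries, with Gas5 C the nearest. Its log2 fold change was -2.48 (SE 0.445, adjusted p = 0.0205), and the call was lost without GFP B (0.0780) or GFP C (0.0976). Leaving out Gas5 C gave -3.51 (adjusted p = 0.00295). Its own receptor Adcyap1r1, the most abundant of these genes, was at 177 to 225 CPM in Gas5, against 156 to 171 CPM in GFP. It differed in the opposite direction by 0.28 with groups apart and an adjusted p of 0.101, and was past the threshold with DESeq2 (0.0419), with no filter (0.0265), with the replicate block (0.0428) and without Gas5 B (0.0380).

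Among receptors of somatostatin and cortistatin, Sstr3 and Sstr1 fell. Sstr3 was at 1.30, 1.68 and 2.19 CPM in Gas5, against 4.23, 4.98 and 7.11 CPM in GFP, with no overlap (log2 fold change -1.65, adjusted p = 0.0115, and 0.0518 without GFP B). Sstr1 was at 1.99, 2.57 and 2.81 CPM in Gas5, against 3.81, 3.63 and 4.63 CPM in GFP, also with no overlap (-0.71, adjusted p = 0.0458). That call was not kept when any 1 library was left out (adjusted p between 0.0531 and 0.170), nor under upper quartile scaling (0.0510) or total count scaling (0.0530). Sstr4 and Sstr5 did not pass the test, at -0.45 (adjusted p = 0.191) and 1.18 (adjusted p = 0.250). Sstr5 was at 1.04 CPM in Gas5 A and at 0.182 to 0.413 CPM in the other libraries, and its log2 fold change was 0.39 on leaving out Gas5 A.

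The receptors of neuropeptide Y did not pass the edgeR test. Npy1r was at 0.20 (adjusted p = 0.550), Npy2r at 0.69 (0.135) and Npy5r at 0.31 (0.242) on the log2 scale. Npy2r and Npy5r had every Gas5 library above every GFP library. Npy2r was at 9.86, 5.96 and 4.90 CPM in Gas5, against 4.61, 4.10 and 4.12 CPM in GFP, with Gas5 A well above the rest. It was past the threshold with DESeq2 (adjusted p = 0.0403) and with no expression filter (0.0287), and its log2 fold change was 0.33 on leaving out Gas5 A (0.231). Crhr2, the second receptor of the corticotropin-releasing hormone family, was at -0.01 (adjusted p = 0.978) and Vipr2 at -0.34 (adjusted p = 0.569). Another gene overlaps 52.4% of the Vipr2 span, so the Vipr2 count covers the remainder only. The other 9 genes (Cckar, Sstr2, Pyy, Ppy, Npy4r, Npy6r, Ucn, Ucn2 and Ucn3) had at most 15 counts in a library and were not tested. Sstr2 had 0 counts in all libraries, and its whole span is shared with other genes, so this count says nothing of its level.

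Levels of different genes are compared per kilobase of gene span. In GFP the order was Sst at 22.5 ± 1.42 CPM per kb, Cck at 2.34 ± 0.492, Npy at 1.01, Vipr1 at 0.888, Crh at 0.634, Crhr1 at 0.415, Crhbp at 0.339, Cckbr at 0.329, Vip at 0.258 and Cort at 0.209. Sst stood above Cck, Cck above Npy, Vipr1 above Crh and Crh above Crhr1 in all 3 GFP libraries, and the other neighbours in this order had overlapping ranges. In Gas5 Cck moved from the second place to the fifth, at 0.438 ± 0.169 CPM per kb, and Vip from the ninth to the last, at 0.0929. There Sst above Npy, Crhr1 above Cckbr and Crhbp above Vip were the neighbours whose ranges did not overlap. The span includes introns, so a gene with long introns, such as Cckbr (45168 bases, 2862 of them exonic), has a lower level per kilobase than over its exons, and the order depends on this choice. Divided by exon length, the same GFP means stood at 43.3 for Sst, 12.1 for Npy, 10.5 for Cck, 7.20 for Crhr1, 5.19 for Cckbr, 4.63 for Vipr1, 2.55 for Crhbp, 0.958 for Crh, 0.637 for Vip and 0.535 for Cort. Npy was then above Cck and Crhr1 above Crh, and Cck went from the third place in GFP to the sixth in Gas5, at 1.97.

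**Figure D3:**
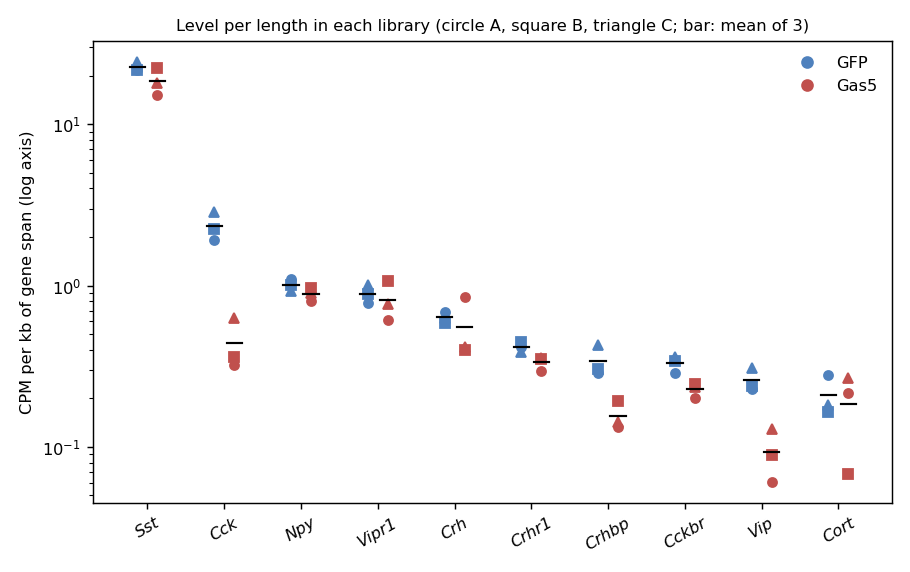
Level of the 10 genes per kilobase of gene span in each library, on a log axis, in the order of the GFP means. Symbols are libraries A, B and C (blue GFP, red Gas5) and bars are the mean of 3. Sst is highest in both groups, and Cck drops from 2.34 to 0.438 CPM per kb.

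The 4 genes that fell ordered the libraries in part like Slc17a7. As a percentage of the GFP mean, Cck was at 13.8, 15.3 and 27.0 in Gas5 A, B and C, Vip at 23.5, 34.5 and 50.0, Cckbr at 61.0, 74.4 and 71.4, and Crhbp at 39.4, 56.5 and 42.2. Slc17a7 was at 2.80, 12.2 and 20.7. Cck and Vip thus shared with Slc17a7 the order of Gas5 A, B and C, while Crhbp and Cckbr had B highest. Within GFP, library A was the lowest and C the highest for all 4 genes and for Slc17a7. So it was for Sst and Vipr1 too, which did not pass the test. Of the 10 genes, 8 had their lowest Gas5 value in Gas5 A (Cort and Crh had it in Gas5 B), and 6 had their highest GFP value in GFP C.

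The ratios to Slc17a7 were not constant. The count ratio of Cck to Slc17a7 was 0.331, 0.0836 and 0.0874 in Gas5, against 0.0730, 0.0610 and 0.0684 in GFP. Gas5 B and C were slightly above the GFP range and Gas5 A was far above it. The ratio of Vip to Slc17a7 was 0.0887, 0.0297 and 0.0255 in Gas5, against 0.0126, 0.00921 and 0.0105 in GFP. For Crhbp it was 0.315, 0.103 and 0.0455, against 0.0254, 0.0190 and 0.0233. For Cckbr it was 1.58, 0.439 and 0.249, against 0.0843, 0.0712 and 0.0658. In all 4 genes each Gas5 library was above each GFP library, with Gas5 A the highest. The same held for Sst, which did not pass the test, at 3.65, 1.23 and 0.584, against 0.196, 0.139 and 0.136. Any gene that falls less than Slc17a7 has a raised ratio, and Slc17a7 was chosen after its values were seen. The tested cortical excitatory markers ranged from -3.07 to -0.01 on the log2 scale, with a median of -2.45, beside -2.42 for Cck. The count ratio of Vip to Cck was 0.268, 0.356 and 0.292 in Gas5, against 0.172, 0.151 and 0.153 in GFP, so Vip was lower by less than Cck in each Gas5 library.

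**Figure D4:**
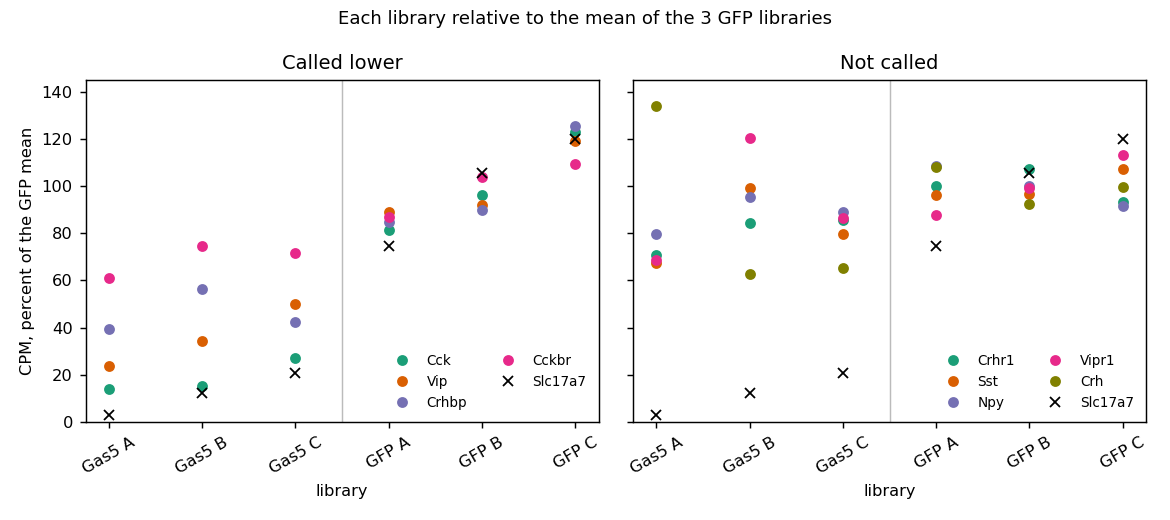
Level of each gene in each library as a percentage of the mean of the 3 GFP libraries, for the 4 genes that fell (left) and for 5 that did not pass the test (right), with Slc17a7 as crosses in both. Cort, with 5 to 27 counts a library, is left out. The left panel shows all Gas5 values at 74.4% or below, and the right panel shows Gas5 values between 62.9% and 134%.

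The genes of peptide processing and dense-core vesicle release showed decreases in 4 of 13 tested and increases in 0. Over all tested genes 3.96% were called lower and 1.48% higher. The median log2 fold change of the 13 was -0.23, and 11 were negative, beside 45.8% of all tested genes. In 7 every Gas5 library was below every GFP library, beside 13.9% of all tested genes. Pcsk1, a protease that cuts many precursors, was at 12.8 to 18.7 CPM in Gas5, against 27.9 to 33.3 CPM in GFP (-0.94, adjusted p = 0.0100). Cadps2, a priming factor of dense-core vesicles, was at 30.1 to 43.8 CPM and 74.3 to 97.0 CPM (-1.17, adjusted p = 0.00809) and kept its call with each library left out. Its relative Cadps fell by 0.51 (adjusted p = 0.0115), and Chgb, a granule protein, fell by 0.47 (adjusted p = 0.0427). The calls of Pcsk1 and Cadps were lost without GFP B (adjusted p = 0.0518 and 0.0656) or GFP C (0.0557 and 0.0659), and that of Chgb in 5 of the 6 fits with a library left out (0.0578 to 0.153) and with robust dispersion (0.0544). Cpe, the carboxypeptidase that trims the cut peptides and the most abundant of the list, was at 555 to 632 CPM in Gas5, against 624 to 683 CPM in GFP (-0.13, adjusted p = 0.316).

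Of 16 general markers of inhibitory neurons and of interneuron classes, 15 were tested, 1 fell and 1 rose, and the median log2 fold change was 0.06. Over all tested genes 3.96% were called lower and 1.48% higher. Of the 15 markers 9 had positive and 6 negative fold changes, beside 45.8% negative over all tested genes. An unadjusted edgeR p under 0.05 was found for 6 of the 15, beside 3766 of all 17563. Groups were apart in 3 in the higher direction and in 2 in the lower, beside 13.8% and 13.9% of all tested genes. Gad2, a GABA-synthesising enzyme that medium spiny neurons also make and the most abundant of the list, was at 549 to 622 CPM in Gas5, against 444 to 497 CPM in GFP (0.31, adjusted p = 0.0435). Its adjusted p was between 0.0668 and 0.192 on leaving out any of 4 libraries (Gas5 B, Gas5 C and GFP B and C). Reln, a secreted protein of some interneurons and of other neurons, was at 102 to 146 CPM in Gas5, against 181 to 274 CPM in GFP (-0.92, adjusted p = 0.0219). Its call was lost on leaving out GFP C (0.107), GFP B (0.0949) or Gas5 C (0.0522) and with robust dispersion (0.0557).

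Some markers of single interneuron classes in that list are named here, chosen after the values were seen. The rest of the list (Gad1, Slc32a1, Chat, Th, Nkx2-1, Sox6, Kit and Tacr1) was tested and not called, and its values are not given here. It includes genes with groups apart, in both directions. Nos1, the nitric oxide synthase made with Sst and Npy, was at 56.9 to 70.8 CPM in Gas5, against 59.7 to 71.2 CPM in GFP (-0.01, adjusted p = 0.953). Lhx6, a factor of interneurons from the medial ganglionic eminence, was at 12.0 to 14.4 CPM and 10.1 to 13.2 CPM (0.12, adjusted p = 0.574). Chodl, a marker of a Sst and Nos1 class, was at 1.37 to 2.27 CPM and 0.598 to 1.08 CPM, with groups apart in the higher direction (1.03, adjusted p = 0.0632). Pvalb, of fast-spiking interneurons, was at 0.835 to 2.43 CPM and 2.41 to 3.81 CPM (-0.88, adjusted p = 0.178). Calb2, made by several classes including many Vip neurons of the cortex, was at 2.31 to 5.33 CPM and 1.84 to 3.203 CPM, with overlap (0.48, adjusted p = 0.455). Htr3a, a receptor of the wider class that holds the Vip neurons, had 4 to 8 counts a library and was not tested, and other genes overlap 57.0% of its bases.

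For each gene that fell, the genes whose levels over the 6 libraries were most alike were listed among 9650 genes whose mean log2 CPM was 3 or more. The measure is Pearson's r of log2 CPM over 6 libraries of 2 groups, so that any gene with groups apart can score high, and it is given as a description. For Cck these were Megf9 (0.999), Pdzrn3 (0.998) and Golga7b (0.998). Their own log2 fold changes were -0.21, -2.37 and -0.86. For Cckbr they were March11, Khdrbs3 and Hs3st2 (0.999 each), with log2 fold changes of -0.60, -0.89 and -1.89. For Vip they were Sept11 (above 0.999), Esrrg (0.998) and Mgst3 (0.997), with -0.13, -0.22 and -0.66. For Crhbp they were Hk1 (0.996), Sprn (0.992) and Mal2 (0.990), with -0.27, -0.31 and -0.44. No gene was listed for more than 1 of the 4.

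**Figure D5:**
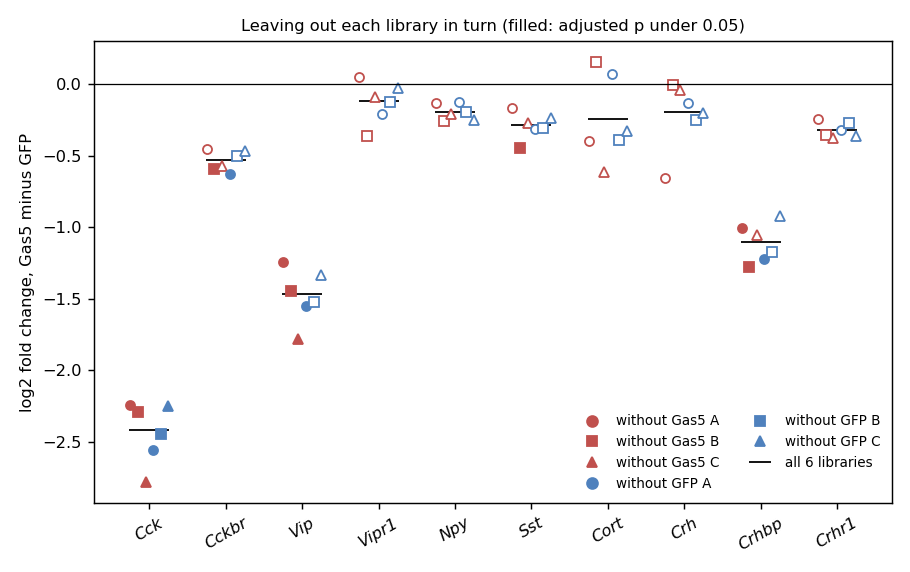
log2 fold change of the 10 genes with each library left out in turn, beside the value from all 6 libraries (black dash). Filled symbols are past the threshold and open symbols are not. Cck is filled in all 6 fits, Vip in 4, Crhbp in 3, Cckbr in 2 and Sst in 1, without Gas5 B.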

How the data were processed

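The deposited values are raw whole-number counts per gene, which the authors made without normalization. Per the labels' protocols, total RNA was depleted of ribosomal RNA and libraries were made with a directional kit. Tools listed in the submitters' notes are featureCounts 1.5.0-p3, STAR 2.7.0, edgeR 3.20.9, bcl2fastq 1.8.4 and Trim Galore 0.4.4, with GRCm38. For the annotation release and the strand setting, the sources used here give nothing. The length column equals the gene's span in 54641 of 54658 rows, so introns were counted. Of protein-coding genes nested in another gene, 0 of 427 on the same strand and 0 of 772 on the opposite strand had counts, against 17921 of 20484 not nested. Reads in overlaps are therefore missing, and strand was not used. Coordinates of the described genes matched GENCODE M21.

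In R 4.3.3, edgeR 4.0.16 filtered genes with filterByExpr, scaled libraries by TMM and tested Gas5 minus GFP over all genes with its quasi-likelihood F-test, 2-sided, with Benjamini-Hochberg adjustment (threshold 0.05). SE is the absolute log2 fold change over the square root of F. Log2 CPM used a pseudocount of 0.5. The script was tested on simulated data. Alternatives were RLE, upper quartile and total count scaling, no filter, 1 CPM in 3 libraries, DESeq2 1.42.0, limma-voom (limma 3.58.1), a robust dispersion, a block on the replicate letter, and leaving out each library. The described genes and all lists were chosen with earlier results of these data known. Named genes are the 10, Gas5, the other genes of the 5 peptide systems, the called and the most abundant genes of the processing and interneuron lists, and 3 genes most alike to each gene called. Slc17a7, Neurod1 and the markers and hypothalamic peptide genes named beyond this were chosen after their values were seen. March11 and Sept11 had been turned into numbers and were restored from coordinates.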

Additional observations from a re-analysis of the deposited data

How the results depend on the processing

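Cck, Vip, Crhbp and Cckbr kept their direction in every alternative and their call in all 9 that used 6 libraries. Between 1 and 5 of the 10 genes were called lower with a library left out. With a library left out, 4 to 251 of all genes were called higher and 101 to 611 lower. The number called higher was 656 with no expression filter, 510 with the replicate block and 483 with DESeq2, against 260. The block on replicate letters gave 928 genes lower and 4 of the 10 lower. The correlations of same-lettered libraries were 0.238, 0.239 and -0.106 for A, B and C, so A and B correlated best with their own letter and C did not. This is mixed and does not show that the letters pair the samples. The sign turned for genes near 0: Vipr1 ranged from -0.36 to 0.0502 with a library left out, Cort from -0.61 to 0.15 and Vipr2 from -0.48 to 0.0137. Crhr2 was at 0.0117 with upper quartile scaling, 0.0425 with total count scaling, 0.0099 with limma-voom and -0.0931 to 0.11 with a library left out. The cause was not tested. Under 1 CPM in 3 libraries Cort was not tested and has no value. Cort, with 5 to 27 counts a library, had the widest interval of the 10 genes. The median of all genes was at most 0.07 under each scaling.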

Other observations

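Among peptide genes of the hypothalamus and preoptic area, Avp, Oxt, Hcrt and Pmch had at most 4 counts in a library and were not tested. For Pmch, 72.4% of the span is shared with another gene, so its count covers the remainder only. Of the 9 genes in that list 4 were tested and 0 were called (0 at an unadjusted edgeR p under 0.05). Over all 17563 tested genes 3.96% were called lower and 1.48% higher, and 3766 had such an unadjusted p. Trh, the precursor of thyrotropin-releasing hormone, was at 0.997 to 1.52 CPM in Gas5 and 1.62 to 2.05 CPM in GFP, with groups apart (log2 fold change -0.43, adjusted p = 0.284 by edgeR). Nts, the precursor of neurotensin, was at 8.42 to 10.7 CPM in Gas5 and 7.40 to 9.63 CPM in GFP (0.17, adjusted p = 0.486). Agrp was at 3.87 to 5.47 CPM over both groups, over a listed span of 70696 bases of which 59.9% is shared with other genes.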
